A study of Mus musculus with 17 samples.

Results

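The mouse mitochondrial genome is a small circle that carries 37 genes, and all 37 were followed here in alveolar type 2 (AT2) cells. They were taken as the genes whose symbol begins with mt-, by looking up the 43430 Ensembl gene IDs of the deposited count tables in the GENCODE M21 annotation (GRCm38, the build also called mm10). They comprise 13 protein-coding genes, 2 ribosomal RNA (rRNA) genes and 22 transfer RNA (tRNA) genes. AT2 cells are the surfactant-producing epithelial cells of the lung alveolus and can give rise to the flat alveolar type 1 (AT1) cells.

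The 17 libraries came from AT2 cells that had been sorted by flow cytometry from C57BL/6J mice aged 2 months. In the bleomycin experiment 4 naive libraries were set against 5 libraries from mice 14 days after bleomycin, a DNA-cleaving drug that injures the lung. These 9 total-RNA libraries used an RNA input of 0.35 ng and the SMARTer Stranded Pico v2 kit, and the treatment label of all 9 reads vehicle, with saline in their titles. In the ISRIB experiment 4 libraries from vehicle-treated mice were set against 4 libraries from mice given ISRIB, a small molecule that dampens the integrated stress response, with cells taken after 24 hours in mice labelled naive. These 8 libraries were enriched for poly(A) RNA and prepared by the NEBNext Ultra kit, with an RNA input of 3 ng. The labels do not say that the libraries of a group came from separate animals, so p-values measure the spread between these libraries, which may be technical. No source used here says whether ribosomal RNA was removed from the total-RNA libraries.

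Each strand of the mitochondrial genome is transcribed as one long precursor, and most mRNAs and rRNAs in it are separated from each other by tRNAs. Cutting out the tRNAs therefore releases the other RNAs. The mRNAs are then polyadenylated, stabilised and translated on the mitochondrion's own ribosomes. All proteins encoded there are subunits of the respiratory chain or of ATP synthase, where they work beside subunits encoded in the nucleus. By the annotation, 12 protein-coding genes, both rRNAs and 14 tRNAs are read as the heavy-strand transcript, while mt-Nd6 and 8 tRNAs are read as the light-strand transcript.

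The tRNA genes are 59 to 75 bases long. The sequences of 5 of them are shown because the largest differences between naive and bleomycin libraries were in tRNAs. They are written 5′ to 3′ as the annotated transcript (GENCODE M21, GRCm38), with the anticodon in capitals, as a search for an anticodon loop closed by a stem found it. In 21 of the 22 tRNAs the anticodon found this way reads the amino acid named in the symbol. The first carries phenylalanine and lies at chrM:1-68 on the plus strand, the second carries valine and lies at chrM:1025-1093 on the plus strand between both rRNA genes. The isoleucine tRNA lies at chrM:3706-3774 on the plus strand, just behind mt-Nd1, and the alanine tRNA at chrM:5018-5086 on the minus strand. The proline tRNA closes the gene order at chrM:15356-15422 on the minus strand.
mt-Tf: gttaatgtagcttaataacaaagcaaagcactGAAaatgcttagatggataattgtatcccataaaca
mt-Tv: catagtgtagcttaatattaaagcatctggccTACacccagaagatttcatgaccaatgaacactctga
mt-Ti: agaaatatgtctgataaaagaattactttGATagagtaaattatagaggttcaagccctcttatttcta
mt-Ta: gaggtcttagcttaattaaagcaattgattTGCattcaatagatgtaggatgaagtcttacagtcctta
mt-Tp: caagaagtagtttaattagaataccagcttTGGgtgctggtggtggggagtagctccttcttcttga

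Not every member could be measured. No count was seen in any total-RNA library for 5 protein-coding genes and 5 tRNAs, and in no poly(A) library for 4 protein-coding genes and 13 tRNAs. The 5 protein-coding genes without a total-RNA count were mt-Co2 and mt-Co3, core subunits of cytochrome c oxidase, mt-Atp6 and mt-Atp8, subunits of ATP synthase, and mt-Nd4l, a subunit of complex I. All 5 lie together, and the gene order around them has a near-identical copy in the nucleus: by the annotation, pseudogenes at chr1:24611535-24616197, on the minus strand, match chrM:6390-11042, a stretch of 4653 bases. That stretch holds 11 members whole (the 5 named above, mt-Nd3 and 5 tRNAs) and parts of mt-Co1 and mt-Nd4. The nuclear copy Gm28661 is identical to mt-Co2 over 681 of 684 bases, Gm10925 to mt-Atp6 over 678 of 681, Gm28437 to mt-Co3 over 783 of 784 and Gm10222 to mt-Nd4l over 294 of 297. No source used here says how the counting treated reads that match more than 1 place, so a count of 0 for these genes says nothing about their expression.

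mt-Nd3, another subunit of complex I, showed the same pattern with a difference. Its copy Gm28438 carries a substitution near the start of the gene, T3C, counted from the gene's first base, and beyond it the 342 bases from position 4 to 345 are identical. The first 40 bases of the gene (chrM:9459-9498, plus strand) and of the copy (chr1:24613080-24613119, minus strand) are shown with the differing base in capitals.
mt-Nd3: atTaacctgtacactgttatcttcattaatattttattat
Gm28438: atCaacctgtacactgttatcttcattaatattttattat
mt-Nd3 had 7, 10, 1 and 4 counts in naive libraries 1 to 4 and 1, 14, 3, 0 and 4 counts in bleomycin libraries 1 to 5. In the poly(A) table it had 2 to 10 counts per library. These counts were too few to test in either table. The tRNA mt-Th also had no count although it lies outside the copied stretch.

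Depth was 3295257 to 4654479 counts per naive library and 3299824 to 6333166 per bleomycin library, against 10493574 to 15727139 in the poly(A) table. Genes with at least 1 count numbered 17108 to 19763 in the naive and 13940 to 17112 in the bleomycin libraries, and the part of this in the lower tRNA and short RNA counts was not tested. A count of 0 in a total-RNA library allows a level of up to 0.474 to 0.91 CPM by counting error alone. CPM are counts scaled to a library of 1000000 counts, by raw library totals for sums over genes and by the TMM-scaled totals of edgeR for single genes. AT2 markers (10 genes, surfactant protein genes among them) were abundant, at a sum of 89730 to 93058 CPM in the naive libraries and 52070 to 102302 CPM in the bleomycin libraries, with the lowest value in bleomycin 1. In the poly(A) libraries they summed to 216637 to 218267 CPM in vehicle and 215301 to 220290 CPM in ISRIB libraries. AT1 markers were higher in every bleomycin library (2126 to 2455 CPM against 1260 to 1505), and so were fibroblast markers (17.8 to 120 against 3.88 to 9.1). The 10 macrophage and monocyte markers summed to 6.23 to 8.5 and 6.62 to 11.4 CPM, with Marco and C1qa at 0 in all 9 libraries. Neutrophil markers stayed at or under 1.88, with S100a8 at 0, lymphocyte markers at 2.39 to 9.24 and 2.57 to 10.9, with Ms4a1 at 0, and endothelial markers at 15.8 to 22.7 and 16.5 to 58. The sums of airway markers (374 to 769 and 410 to 792) overlapped between the groups. Single genes of these lists could still differ. Of 4 airway genes tested, Foxj1 was higher after bleomycin (log2 fold change 2.27, edgeR adjusted p = 0.0044). Of 4 endothelial genes tested, Cdh5 was (1.44, edgeR adjusted p = 0.0183). No other gene of these 2 lists had an adjusted p under 0.05.

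After bleomycin the differences of the mitochondrially encoded RNAs varied in size between the classes and within them. Of the 13 protein-coding genes 7 could be tested, and 6 of those fell, by 1.35 to 1.69-fold. The small-subunit rRNA mt-Rnr1 fell 1.5-fold and the large-subunit rRNA mt-Rnr2 had almost the same mean in both groups. Of the 22 tRNAs only 8 passed the filter on low counts, and all 8 were 9.93 to 23.8-fold lower. Since a tRNA could pass that filter only through the naive libraries, this count supports nothing by itself. The values of each tRNA in each library are what the data show. Except for mt-Tv and mt-Tp, the mean bleomycin levels of these tRNAs were 0.41 to 0.841 CPM. Their folds therefore rest on few counts, near the level that a count of 0 allows. Tests were edgeR's quasi-likelihood test with Benjamini-Hochberg adjustment over all 11223 genes tested, called at an adjusted p under 0.05. In that test 20.5% of all genes were called, 9.31% as lower and 11.2% as higher, and the median log2 fold change of all genes was 0.0026. Because these are bulk libraries, fewer cells of a type and less RNA per cell cannot be told apart in any of these values.

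**Figure D1:**
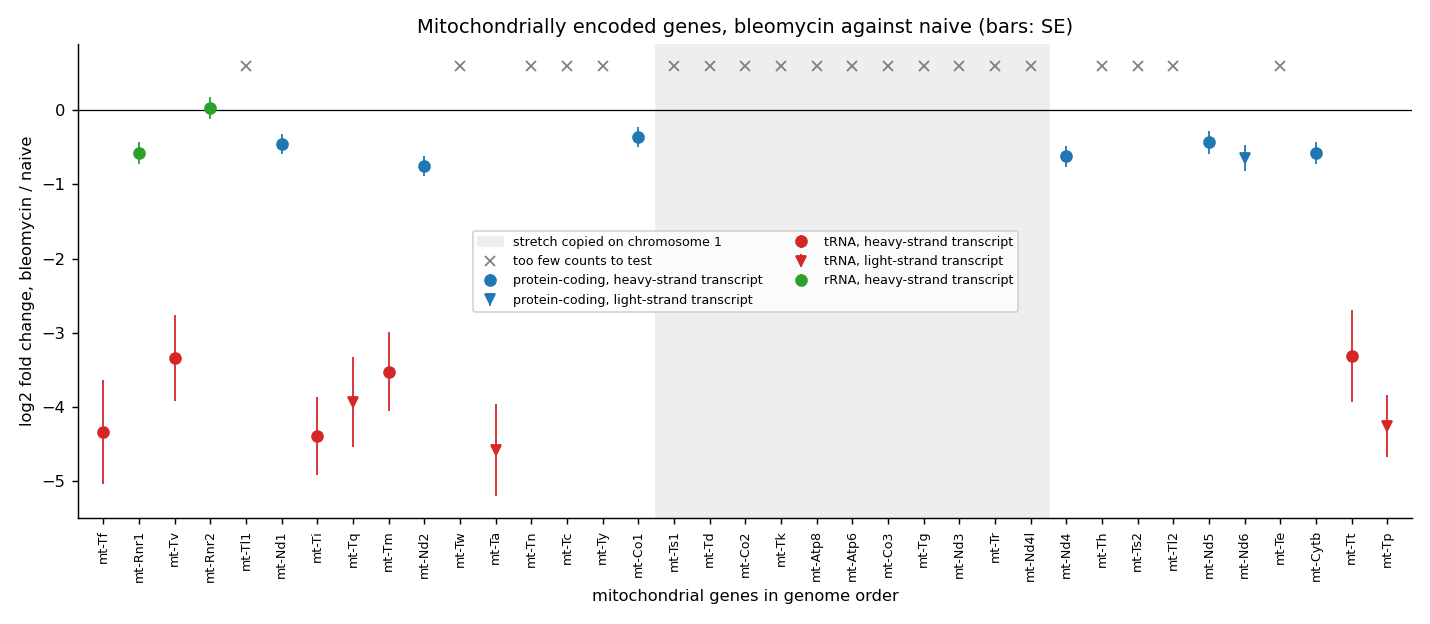
The log2 fold change of each mitochondrial gene (bleomycin against naive, 4 and 5 libraries, bars: SE) is plotted in genome order, by class and by strand of the transcript, with crosses for genes with too few counts and grey for the stretch copied on chromosome 1. The tRNAs tested lie between -4.58 and -3.31, the protein-coding genes between -0.75 and -0.36, and mt-Rnr2 lies at 0.03.

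The 37 genes together took 9.66% to 10.9% of all counts in the naive libraries and 7.21% to 10.4% in the bleomycin libraries. Most of these were rRNA counts, at 9.02%, 9.48%, 8.94% and 8.49% of the library in naive 1 to 4 and 6.44%, 8.91%, 9.5%, 7% and 9.31% in bleomycin 1 to 5. Bleomycin 1 and 4 were the low libraries and the other 3 lay in the range of the naive ones. Protein-coding counts took 1.03%, 1.42%, 0.88% and 1.16% of the naive libraries and 0.778%, 0.884%, 0.87%, 0.669% and 0.939% of the bleomycin libraries. These shares overlapped through naive 3, the lowest naive library.

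The rRNAs form the core of the mitochondrial ribosome and are read from neighbouring genes, mt-Rnr1 (12S, chrM:70-1024) and mt-Rnr2 (16S, chrM:1094-2675), with only mt-Tv between them. mt-Rnr1 was at 41288, 42571, 39048 and 37238 CPM in naive 1 to 4. In bleomycin 1 to 5 it was at 22344, 30666, 30348, 22023 and 28272 CPM. Every bleomycin library lay under every naive one, and the log2 fold change was -0.58 (SE 0.147, adjusted p = 0.00877). Among all genes tested, 19.7% had groups that did not overlap, and 9.35% had all bleomycin libraries under all naive ones.

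mt-Rnr2 was at 58453, 51680, 53280 and 47660 CPM in naive 1 to 4. In bleomycin 1 to 5 its level was 43863, 55047, 62821, 49459 and 58644 CPM. The groups overlapped throughout, and the log2 fold change was 0.03 (SE 0.149, adjusted p = 0.903). The within-library ratio of mt-Rnr1 to mt-Rnr2 counts needs no scaling to other genes, but its dependence on any rRNA removal was not tested. It was 0.706, 0.824, 0.733 and 0.781 in the naive libraries and 0.509, 0.557, 0.483, 0.445 and 0.482 in the bleomycin libraries, so the groups did not overlap and bleomycin 1 and 4, which had the lowest mt-Rnr1 levels, did not stand apart in this ratio. The mean ratio was 0.761 ± 0.0521 (SD, n = 4) against 0.495 ± 0.0414 (SD, n = 5). Gene models outside the mitochondrial genome with rRNA-like sequence took 14.8% to 23.2% of naive counts and 11.8% to 25.1% of bleomycin counts.

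**Figure D2:**
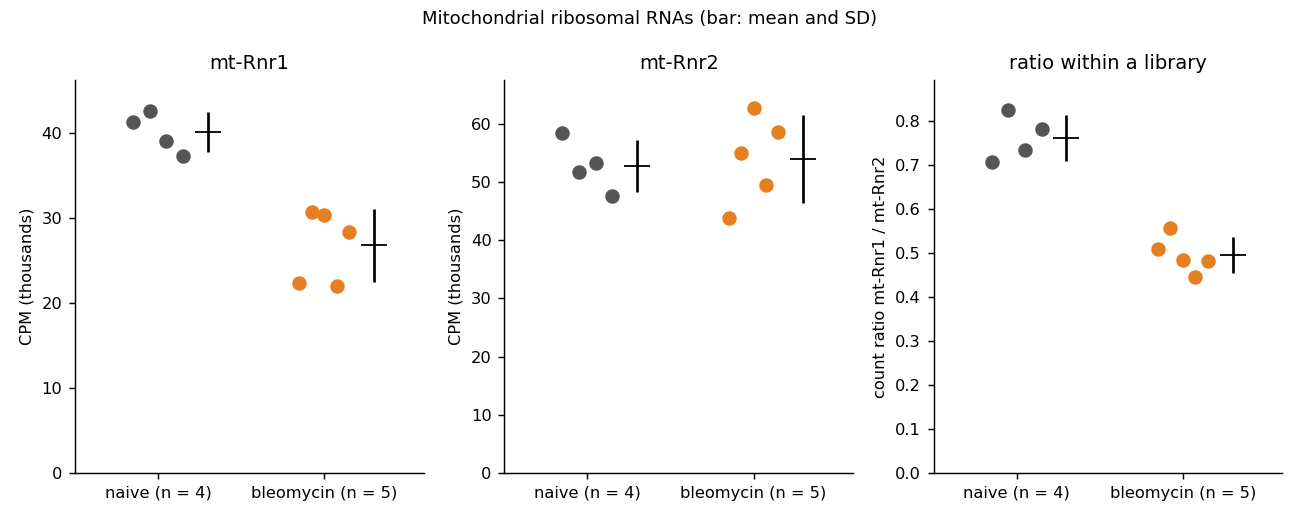
Each point is 1 library, with the CPM (axis in units of 1000) of mt-Rnr1 and mt-Rnr2 and the ratio of their counts on the vertical axes, and the cross marks mean and SD. mt-Rnr1 and the ratio separate the 4 naive from the 5 bleomycin libraries, while mt-Rnr2 overlaps.

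Per kilobase of gene, the rRNAs stood far above the protein-coding genes in naive cells, at 41923 ± 2478 CPM per kilobase for mt-Rnr1 and 33356 ± 2824 for mt-Rnr2 (SD, n = 4). For the protein-coding genes that reach into the copied stretch, only the bases outside it were taken as length, and the places of mt-Nd4 and mt-Co1 in the order rest on that choice. On this scale the naive level was 2306 ± 334 for mt-Cytb, 2122 ± 346 for mt-Co1 and 1983 ± 390 for mt-Nd4, which did not differ beyond their spread. mt-Nd5 at 1550 ± 363, mt-Nd1 at 1414 ± 228 and mt-Nd2 at 1197 ± 261 CPM per kilobase followed, again with overlapping spreads. mt-Nd6, the protein-coding gene of the light-strand transcript, was the lowest at 415 ± 35.5.

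Most of the testable protein-coding genes make complex I, the NADH dehydrogenase that feeds electrons into the respiratory chain. mt-Nd2 had the lowest p of the class, with 1280, 1549, 889 and 1252 CPM in naive 1 to 4 and 721, 726, 815, 645 and 776 CPM in bleomycin 1 to 5. The groups did not overlap, with naive 3 nearest to the bleomycin libraries. The log2 fold change of mt-Nd2 was -0.75 (SE 0.14, adjusted p = 8.99e-04).

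mt-Nd4 (chrM:10167-11544) was at 1017, 1206, 732 and 1026 CPM in the naive libraries and 655, 707, 685, 477 and 703 CPM after bleomycin. Its groups did not overlap either, although naive 3 exceeded bleomycin 2 only slightly. It fell by 0.63 on the log2 scale (SE 0.147, adjusted p = 0.00563). The counts come from a gene of which the copy Gm28439 matches the first 876 of 1378 bases.

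mt-Nd6 (chrM:13552-14070, minus strand) was at 209, 192, 231 and 229 CPM in naive libraries and 197, 93.5, 123, 170 and 109 CPM in bleomycin libraries. Only bleomycin 1 lay within the naive range. The log2 fold change was -0.64 (SE 0.174, adjusted p = 0.0132). mt-Nd6 overlaps the end of mt-Nd5 by 14 bases, and no source used here states whether counting used the strand.

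mt-Nd5 and mt-Nd1 had smaller differences. mt-Nd5 was at 2717, 3656, 2047 and 2890 CPM in naive 1 to 4 and at 2083, 2259, 2108, 1691 and 2317 CPM in bleomycin 1 to 5, where naive 3 lay inside the bleomycin range. Its difference on the log2 scale, -0.44 (SE 0.151, adjusted p = 0.0491), lost the call when naive 2 was left out (-0.29, adjusted p = 0.228) and in 6 other such leave-one-out fits. mt-Nd1 was at 1342, 1636, 1104 and 1329 CPM in the naive libraries and 910, 1118, 1045, 818 and 1050 CPM after bleomycin, with naive 3 under bleomycin 2. It fell by 0.45 on the log2 scale (adjusted p = 0.0209) and lost the call without naive 2 (adjusted p = 0.105) or without naive 4 (adjusted p = 0.0535).

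mt-Cytb encodes cytochrome b, the catalytic core of complex III, at chrM:14145-15288. Its level was 2527, 3148, 2230 and 2648 CPM in naive libraries and 1981, 1781, 1937, 1215 and 1934 CPM in bleomycin libraries. The groups did not overlap and bleomycin 4 was far below the other 4. Its log2 fold change was -0.58 (SE 0.149, adjusted p = 0.0102), and without naive 2 it was -0.48 with the call lost (adjusted p = 0.0522).

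mt-Co1, the catalytic subunit of cytochrome c oxidase (complex IV), was the exception among the 7. It was at 2241, 2739, 1847 and 2189 CPM in the naive libraries and 1454, 1815, 1819, 1811 and 1876 CPM in the bleomycin libraries, so naive 3 lay below the highest bleomycin value. The difference of -0.36 on the log2 scale (SE 0.131) had an adjusted p of 0.0588 and was not called. With DESeq2 the adjusted p was 0.0168 and with limma-voom 0.0356.

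Across the class, the median log2 fold change of the 7 tested genes was -0.58, and 3 of them (mt-Nd2, mt-Nd4 and mt-Cytb) had all bleomycin libraries below all naive ones. The same held for 9.35% of all genes tested. Among the naive libraries, naive 3 was the lowest and naive 2 the highest for all 6 heavy-strand protein-coding genes tested. Bleomycin 4 was the lowest bleomycin library for mt-Nd1, mt-Nd2, mt-Nd4, mt-Nd5 and mt-Cytb, and bleomycin 1 was the lowest for mt-Co1. The highest bleomycin library differed between these genes, with bleomycin 1 for mt-Cytb and bleomycin 3 for mt-Nd2. The light-strand gene did not follow the order of the naive libraries, since mt-Nd6 was highest in naive 3 and lowest in naive 2. Per 100 mt-Cytb counts there were 8.26, 6.1, 10.4 and 8.65 mt-Nd6 counts in the naive libraries and 9.93, 5.25, 6.36, 14 and 5.64 in the bleomycin libraries, a ratio that overlapped between the groups. Scaling libraries by their own mitochondrial protein-coding counts centres these genes near 0 by construction, and so gives only their differences from each other. On that scale none of the 7 was called, with log2 values from -0.24 for mt-Nd2 to 0.15 for mt-Co1.

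**Figure D3:**
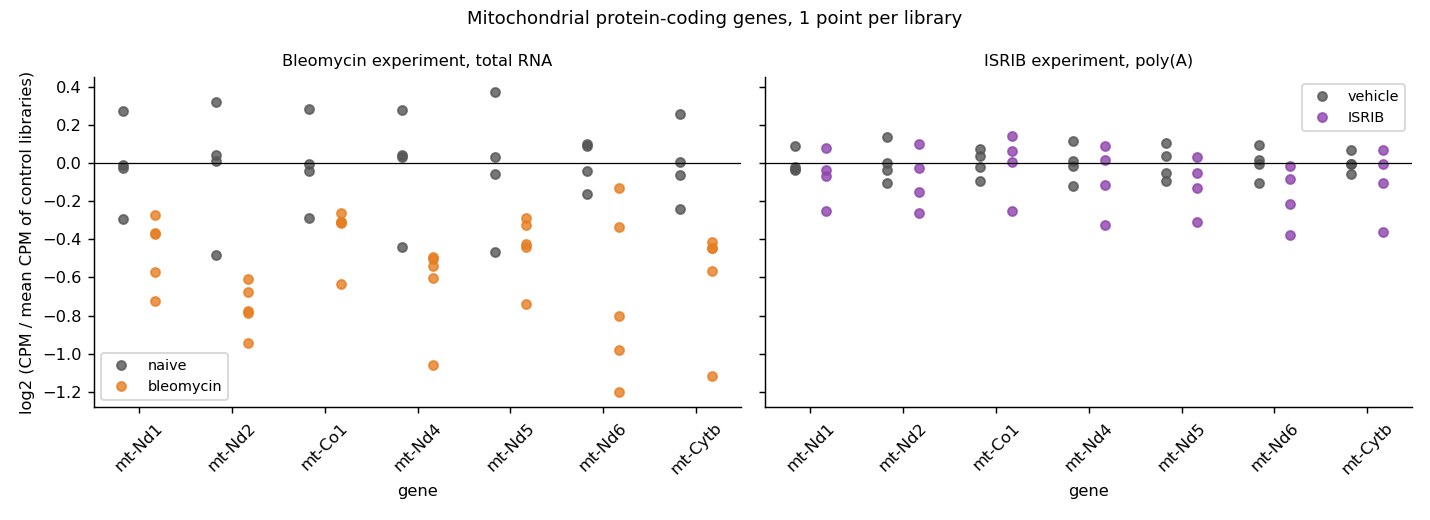
Each point is 1 library, placed by log2 of its CPM over the mean CPM of the control libraries (naive on the left, vehicle on the right), for the 7 protein-coding genes tested. The 5 bleomycin libraries lie below 0 for every gene, while the 4 ISRIB libraries lie on both sides of 0 for mt-Nd1, mt-Nd2, mt-Co1, mt-Nd4, mt-Nd5 and mt-Cytb and below it for mt-Nd6.

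The tRNAs, which carry amino acids to the mitochondrial ribosome, differed most. Summed over all 22 genes, they had 261, 72.4, 224 and 80.2 CPM in naive 1 to 4 and 11.8, 12.2, 17.5, 19.4 and 10.7 in bleomycin 1 to 5. The groups did not overlap, and within the naive group libraries 1 and 3 were about 3 times as high as libraries 2 and 4. Per 1000 mitochondrial protein-coding counts there were 25.5, 5.1, 25.4 and 6.93 tRNA counts in the naive libraries and 1.52, 1.38, 2.01, 2.9 and 1.14 in the bleomycin libraries.

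mt-Tp, the proline tRNA, was the most abundant, with 289, 98, 280 and 111 counts in the naive libraries. In bleomycin libraries 1 to 5 it had 12, 9, 25, 17 and 12 counts. As levels this was 58.8 ± 37.4 CPM (SD, n = 4) against 3.17 ± 1.49 CPM (SD, n = 5), without overlap. The log2 fold change was -4.26 (SE 0.418, adjusted p = 1.61e-06), a 19.1-fold difference.

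mt-Tv, the valine tRNA between the rRNA genes, had 201, 43, 190 and 29 counts in naive libraries and 19, 12, 12, 26 and 12 in bleomycin libraries. On the CPM scale this was 67.4, 9.19, 57 and 8.64 against 5.03, 2.17, 1.86, 8.04 and 1.9. The groups did not overlap, but naive 4 and bleomycin 4 were almost level. On the log2 scale the difference was -3.34 (SE 0.574, adjusted p = 4.54e-04), and when naive 1 and 3 were both left out it became -1.3 (adjusted p = 0.202).

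mt-Ta, the alanine tRNA, had the largest fold, with 72, 30, 38 and 20 counts in the naive libraries and 0, 1, 6, 3 and 2 in the bleomycin libraries. Its mean level was 12 ± 8.48 CPM (SD, n = 4) against 0.471 ± 0.433 CPM (SD, n = 5), and the log2 fold change was -4.58 (SE 0.622, adjusted p = 4.02e-05). mt-Ti, the isoleucine tRNA, had 86, 35, 63 and 27 counts in naive and 5, 4, 6, 2 and 1 counts in bleomycin libraries, which differ by -4.39 on the log2 scale (SE 0.523, adjusted p = 1.12e-05). For both, the highest bleomycin library stayed far under the lowest naive library. mt-Tf, the phenylalanine tRNA, had 41, 20, 36 and 11 counts in naive and 0, 1, 1, 4 and 3 counts in bleomycin libraries, a difference of -4.34 on the log2 scale (SE 0.697, adjusted p = 1.99e-04).

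The other 3 tRNAs tested were mt-Tq (glutamine), mt-Tm (methionine) and mt-Tt (threonine), with log2 fold changes of -3.93, -3.52 and -3.31. Their counts ran from 12 to 53 per naive library and from 0 to 8 per bleomycin library, without overlap for any of the 3. The tRNAs tested lie on both strands, and mt-Tp on the light strand is the direct neighbour of mt-Tt on the heavy strand.

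Of the 14 tRNAs not tested, 5 had no count and 9 had few. mt-Tl1, a leucine tRNA behind mt-Rnr2, had 36, 7, 35 and 9 counts in naive libraries and 1, 0, 6, 0 and 1 in bleomycin libraries. Without the filter its log2 fold change was -4.29 (edgeR adjusted p = 8.39e-08). That fit gave the tested tRNAs smaller adjusted p-values than the main fit (mt-Tp: 6.13e-73 against 1.61e-06 in edgeR). Its p-values can therefore not be set beside those of the main fit. mt-Tw, the tryptophan tRNA, did not have the pattern of mt-Tl1, with 3, 25, 7 and 4 counts against 1, 8, 20, 3 and 10. The tyrosine tRNA mt-Ty was alike, with 3, 11, 2 and 4 counts against 0, 16, 15, 0 and 12. For these 2 the highest naive library was naive 2, not naive 1 or 3, and the groups overlapped. Without the filter their log2 fold changes were -0.67 (adjusted p = 0.533) for mt-Tw and 0.21 (adjusted p = 0.880) for mt-Ty. The other 6 (mt-Tn, mt-Tc, mt-Tr, mt-Ts2, mt-Tl2 and mt-Te) had 0 to 6 counts in every library.

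Short RNAs encoded in the nucleus were lower after bleomycin too. Small nucleolar and Cajal body RNA genes under 200 bases summed to 1750, 610, 1024 and 878 CPM in naive 1 to 4 and 278, 325, 247, 362 and 275 in bleomycin 1 to 5, without overlap. Of all 95 nuclear gene models under 200 bases that were tested, 63 were called lower and 1 higher, with a median log2 fold change of -1.62. Over all genes tested, 9.31% were called lower. These models had passed the same filter on low counts as the tRNAs. Of the 95, 3 fell at least as far as the least changed tRNA tested (-3.31) and 1 as far as the tRNA median (-4.09). The tRNAs tested could pass the filter only through the naive libraries. Their falls are therefore no measure for all mitochondrial tRNAs, and whether tRNAs fell further than other short RNAs was not tested. Among the 21 models of at most 75 bases, 14 were called lower, and their median was -1.95. In gene models from 401 to 1000 bases the median was 0.0016, with 16 of 214 called lower.

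**Figure D4:**
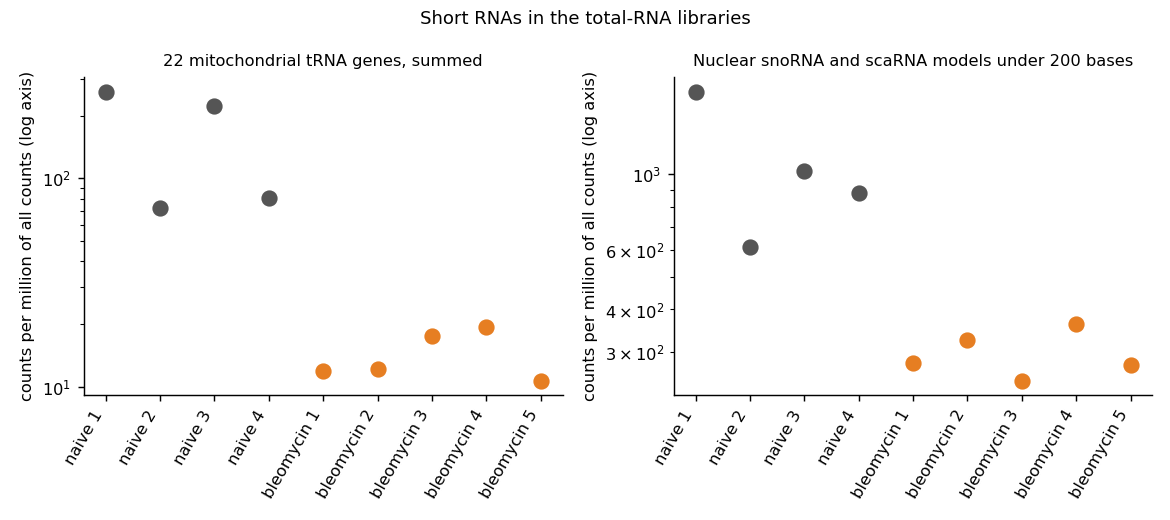
Levels in CPM of all counts (log axes) are shown per total-RNA library for the 22 mitochondrial tRNA genes summed (left) and for small nucleolar and Cajal body RNA gene models under 200 bases summed (right). Both sums are higher in each of the 4 naive than in any of the 5 bleomycin libraries, and the tRNA sum is highest in naive 1 and 3.

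Trends with gene length and GC content were fitted in each library, on the deviation of nuclear genes from their mean over libraries, and removed. With these trends removed, the tRNA median log2 fold change became -2 and 6 of 8 tRNAs were called. These 8 could pass the filter only through the naive libraries, so this count supports nothing by itself. mt-Tv (-1.22, adjusted p = 0.0549) and mt-Tt (-1.19, adjusted p = 0.199) lost the call. The fold change of mt-Tp was then -2.29 (adjusted p = 4.53e-05), that of mt-Ta -2.33 and that of mt-Ti -2.11. Under the same correction mt-Rnr1 remained called (-0.36, adjusted p = 0.0476), as did 3 of the 6 protein-coding genes, while mt-Nd1 (-0.27, adjusted p = 0.104), mt-Nd5 (-0.28, adjusted p = 0.164) and mt-Nd6 (-0.10, adjusted p = 0.816) did not. When naive 1 and 3, the libraries rich in tRNA counts, were both left out, 868 genes were called in all. Among them were 5 tRNAs, including mt-Tp (-3.13, adjusted p = 2.20e-04), mt-Ti (-3.37, adjusted p = 0.00903) and mt-Ta (-3.66, adjusted p = 0.0159). In that fit mt-Rnr1 had a log2 fold change of -0.59 that was not called (adjusted p = 0.0745). The part that RNA size, RNA quality, the AT1 and fibroblast markers or library making had in the lower tRNA, rRNA and mRNA levels was not tested.

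The nuclear genes that serve mitochondrial DNA and RNA were described in 6 lists, to be read against the 9.31% of all genes called lower and 11.2% called higher. Of 11 DNA maintenance genes tested, Polg2, the accessory subunit of the mitochondrial DNA polymerase, fell from 15.9 ± 2.71 (SD, n = 4) to 8.59 ± 1.51 CPM (SD, n = 5), a log2 fold change of -0.9 (adjusted p = 0.00943), and no other was called. Of these 11 genes 10 had log2 fold changes below 0, with a list median of -0.35. None of 8 transcription genes was called. Polrmt, the mitochondrial RNA polymerase, had a log2 fold change of -0.37 (adjusted p = 0.285), and Tfam, which packages the DNA and starts transcription, one of -0.03 (adjusted p = 0.939). The lowest p of that list was for Mrpl12 (0.56, adjusted p = 0.0754).

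None of 18 tRNA processing and modification genes was called either, and 14 of them had log2 fold changes below 0, with a median of -0.23 against 0.0026 over all genes. Trmt10c, a subunit of the RNase P that cuts the 5′ end of mitochondrial tRNAs, was at -0.32 (adjusted p = 0.559), and its partner Hsd17b10 at -0.45 (adjusted p = 0.0616). Elac2, the nuclease that cuts the 3′ end, was at 0.46 (adjusted p = 0.169). Of 17 mRNA stability genes, Lrpprc, which binds and protects mitochondrial mRNAs, was called, rising from 40.5 ± 5.35 (SD, n = 4) to 56.3 ± 3.57 CPM (SD, n = 5) with a log2 fold change of 0.47 (adjusted p = 0.0154).

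Among 12 translation factors, Tufm, the mitochondrial elongation factor that brings tRNAs to the ribosome, rose by 0.71 on the log2 scale (adjusted p = 0.0246) and no other was called. Of 9 regulators of mitochondrial biogenesis none was called. Ppargc1a, a coactivator of this programme, had a log2 fold change of -0.005 (adjusted p = 0.992), and the lowest p was that of Pprc1 (0.45, adjusted p = 0.113).

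The nuclear genes of the mitochondrial ribosome and the respiratory chain make proteins that work beside those made in the mitochondrion. Of 153 such genes tested, 22 were called higher and 1 lower. Over all genes tested, 11.2% were called higher and 9.31% lower. Of 75 mitochondrial ribosomal protein genes tested, 6 were called higher and 0 lower, with a median log2 fold change of 0.27. Mrps6 (1.4, adjusted p = 0.00397), Mrpl46 (1.24, adjusted p = 0.0107) and Mrps18a (0.78, adjusted p = 0.03) had the lowest p. Of 36 nuclear complex I genes 2 were called higher, Ndufa12 (0.73, adjusted p = 0.00637) and Ndufs4 (0.58, adjusted p = 0.0251), and 0 lower, where 5 of the 5 mitochondrial complex I genes tested were called lower.

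In complex II, which has no mitochondrially encoded subunit, Sdhb (0.64, adjusted p = 0.00654) and Sdhd (0.59, adjusted p = 0.0458) rose, 2 of 4 genes. In complex III, 3 of 9 nuclear genes rose, Uqcrq (0.91, adjusted p = 0.0017), Uqcrc1 (0.66, adjusted p = 0.00311) and Cyc1 (0.59, adjusted p = 0.0107), beside the lower mt-Cytb. In complex IV, 3 of 13 rose, Cox5b (0.78, adjusted p = 0.00318), Cox6a1 (0.67, adjusted p = 0.0181) and Cox7a2 (0.61, adjusted p = 0.0378). Cox7a2l, known for joining respiratory complexes into larger assemblies, fell by 0.65 on the log2 scale (adjusted p = 0.00343). In ATP synthase, 6 of 16 nuclear genes rose and 0 fell, led by Atp5b (0.61, adjusted p = 0.00139), Atp5f1 (0.66, adjusted p = 0.00451) and Atp5j (0.52, adjusted p = 0.00808). The share of all genes called higher was 11.2%, and the share of calls in complex I (2 of 36) and in the ribosomal proteins (6 of 75) was below it. A test of nuclear against mitochondrial subunits as groups was not made.

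**Figure D5:**
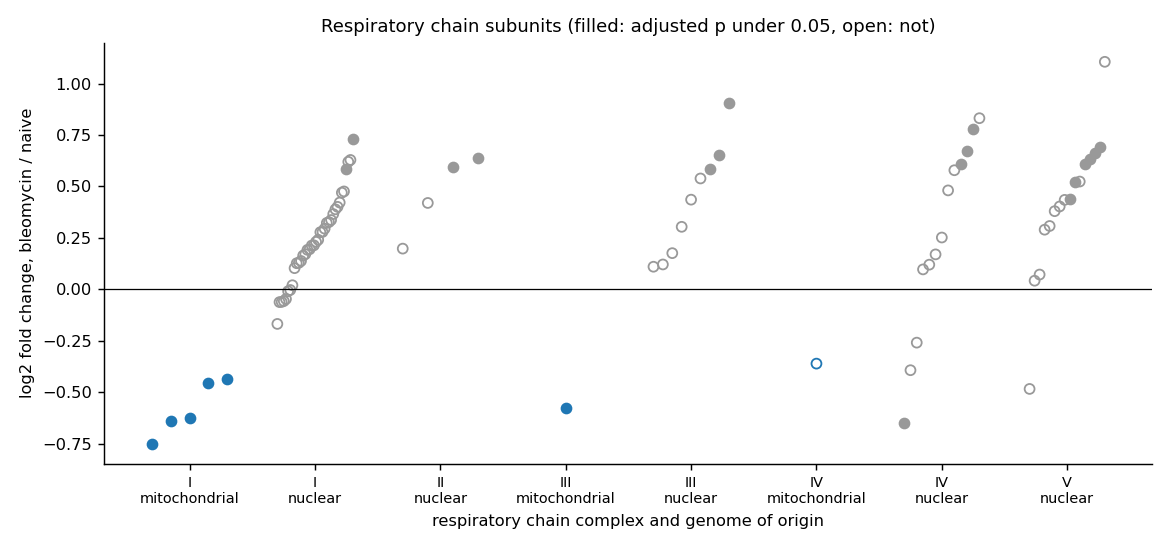
Log2 fold changes (bleomycin against naive) of the tested respiratory chain subunits are plotted by complex and genome of origin, blue for mitochondrial and grey for nuclear genes, filled where the adjusted p was under 0.05. All 7 mitochondrial subunits lie below 0. Of the nuclear genes, 29 of 36 lie above 0 in complex I, 4 of 4 in II and 9 of 9 in III. In complex IV 10 of 13 and in complex V 15 of 16 do.

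In the ISRIB experiment no mitochondrially encoded gene was called, in a test of 12054 genes in which 2.2% were called, 1.1% higher and 1.1% lower. The poly(A) libraries measured 7 protein-coding genes, both rRNAs and 3 tRNAs, and in all 12 the ISRIB and vehicle libraries overlapped, where 8.65% of all genes tested had groups that did not overlap (4.39% with ISRIB below and 4.26% with ISRIB above). The common biological coefficient of variation was 7.66% here and 21.1% in the bleomycin experiment. Protein-coding counts took 3.71%, 3.9%, 3.82% and 4.09% of the vehicle libraries and 3.89%, 3.26%, 4.11% and 3.72% of the ISRIB libraries. ISRIB 2 was the lowest.

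mt-Nd6 had the lowest p, with 1764, 1917, 1890 and 2027 CPM in vehicle 1 to 4 and 1793, 1464, 1878 and 1635 CPM in ISRIB 1 to 4. Its log2 fold change was -0.17 (SE 0.07, adjusted p = 0.247). mt-Nd5 was at 5959, 6528, 6128 and 6825 CPM against 6133, 5130, 6508 and 5808 CPM, a difference of -0.11 on the log2 scale (SE 0.069, adjusted p = 0.465). In both genes ISRIB 2 and 4 were the only libraries below every vehicle library.

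mt-Cytb was at 6832, 7095, 7088 and 7462 CPM in vehicle libraries and 7094, 5546, 7460 and 6619 CPM in ISRIB libraries (log2 fold change -0.09, SE 0.074, adjusted p = 0.593). mt-Nd2 was at 4231, 4432, 4547 and 5000 CPM against 4473, 3788, 4873 and 4103 CPM (log2 fold change -0.08, SE 0.072, adjusted p = 0.655). Again ISRIB 2 and 4 were the lowest of all 8 libraries for each gene. mt-Nd1 was at 4502, 4521, 4542 and 4902 CPM against 4505, 3874, 4880 and 4395 CPM.

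The smallest difference was that of mt-Co1, at 10953, 11982, 11536 and 12303 CPM in vehicle libraries and 12192, 9809, 12908 and 11711 CPM in ISRIB libraries. Its log2 fold change was -0.005 (SE 0.072, adjusted p = 0.984). mt-Nd4 was at 2628, 2881, 2826 and 3101 CPM against 2886, 2279, 3040 and 2634 CPM (log2 fold change -0.08, SE 0.076, adjusted p = 0.690). For all 7 genes the log2 fold change was within 0.17 of 0 and its SE was 0.064 to 0.076.

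The rRNAs were minor in these libraries, at 0.281% to 0.333% of vehicle counts and 0.226% to 0.354% of ISRIB counts. mt-Rnr1 was at 601, 685, 600 and 741 CPM in vehicle and 703, 470, 810 and 541 CPM in ISRIB libraries (log2 fold change -0.06, SE 0.123, adjusted p = 0.883). mt-Rnr2 was at 2193, 2553, 2445 and 2647 CPM against 2516, 1742, 2763 and 1917 CPM (log2 fold change -0.14, SE 0.11, adjusted p = 0.590). ISRIB 2 and 4 were again the lowest libraries for both. The ratio of mt-Rnr1 to mt-Rnr2 counts ran from 0.245 to 0.280 in vehicle and from 0.270 to 0.293 in ISRIB libraries.

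The 3 tRNAs tested after poly(A) enrichment were mt-Tp, mt-Tc and mt-Tn, all annotated on the light-strand transcript. mt-Tp was at 22.4, 23.1, 23.3 and 24.8 CPM in vehicle libraries and 25, 23.6, 25.5 and 32.4 CPM in ISRIB libraries (log2 fold change 0.19, SE 0.095, adjusted p = 0.36). mt-Tc, the cysteine tRNA, was at 11.7, 13.8, 13.9 and 15.5 CPM against 13.3, 12.9, 16.2 and 11.8 CPM (log2 fold change -0.02, adjusted p = 0.956). mt-Tv, mt-Ti and mt-Tf, called in the total-RNA libraries, had no count in any of the 8 poly(A) libraries, and mt-Tc, with 3 counts in all 9 total-RNA libraries, had 134 to 212 per poly(A) library. The kits, RNA inputs and mice differed between the tables, so these levels are set side by side and were not tested.

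Per kilobase the order of the protein-coding genes in vehicle libraries began with mt-Co1 at 11011 CPM per kilobase and mt-Cytb at 6223, and mt-Nd5 was the lowest at 3487. For mt-Co1 and mt-Nd4 only the bases outside the copied stretch were again taken as length. That mt-Nd5 and not mt-Nd4 was the lowest rests on this choice. mt-Nd6 was at 3659, close to mt-Nd5, whereas in the naive total-RNA libraries it stood well below every other protein-coding gene tested. Whether counting used the strand is not stated for either table, and this difference of mt-Nd6 was not tested. Per 1000 mitochondrial protein-coding counts there were 0.977 to 1.05 tRNA counts in vehicle libraries and 1.05 to 1.27 in ISRIB libraries, with every ISRIB library above every vehicle library, the nearest of them by a small margin; this ratio was not tested. There were 25.8 to 27.2 mt-Nd6 counts per 100 mt-Cytb counts in vehicle libraries and 24.7 to 26.4 in ISRIB libraries.

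Among the nuclear lists, Twnk, the helicase of mitochondrial DNA, rose from 10.5 ± 0.549 to 14.1 ± 0.94 CPM (SD, n = 4 each; log2 fold change 0.42, edgeR adjusted p = 0.0373), and Pprc1, a regulator of biogenesis, from 15.6 ± 1.67 to 22.1 ± 4.2 CPM (SD, n = 4 each; 0.50, edgeR adjusted p = 0.0430). No other gene of the 6 lists was called, nor any of 76 mitochondrial ribosomal protein genes or of the nuclear subunits of complexes I to V. Lrpprc was at -0.26 (adjusted p = 0.0794), with all ISRIB libraries below all vehicle libraries. Polrmt was at 0.22 (adjusted p = 0.262), Trmt10c at 0.26 (adjusted p = 0.252), Elac2 at 0.09 (adjusted p = 0.789), Tfam at 0.03 (adjusted p = 0.905) and Ppargc1a at -0.13 (adjusted p = 0.730) on the log2 scale.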

How the data were processed

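RNA was sequenced in 17 libraries of sorted AT2 cells. The authors deposited 2 tables of raw counts, 1 per library kit, each with 43430 gene IDs; that the values are counts was read from them. The submitters' processing notes name bcl2fastq 2.19.1, FastQC, Trimmomatic 0.36, STAR 2.6.0, HTSeq 0.11.2 and the build mm10, with no role or order. The mode, strand setting and annotation of the counting are not given in the sources. All sample columns were used (0 others).

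Symbols, positions, lengths and sequences come from a match of gene IDs to GENCODE M21 (GRCm38), where 42462 IDs had a symbol. Bleomycin was compared with naive and ISRIB with vehicle, each within its own table. The filter was filterByExpr (at least 10 counts, total at least 15) and the scaling TMM. The test was the quasi-likelihood F test in edgeR 4.0.16 under R 4.3.3, two-sided, on group alone, with Benjamini-Hochberg adjustment over all genes tested. CPM are on TMM-scaled library sizes, while class sums use raw library totals. The SE is the log2 fold change over the root of its F statistic. The procedure was tested on simulated data.

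The members and gene lists were chosen with earlier results of these data known. Named were all members (both rRNAs, all tested protein-coding genes, tRNAs of at least 10 CPM on average and the 4 with the largest called change, by library), and in each nuclear list up to 3 called genes per direction or else the lowest p, with Polrmt, Tfam, Lrpprc, Elac2, Trmt10c and Ppargc1a always named. Alternatives were DESeq2 1.42.0, limma-voom (limma 3.58.1), RLE factors, no filter, the replicate number as a block, other library sizes, removal of length and GC trends and each library left out in turn. Leaving out naive 1 and 3 together was added after the data had been seen. Depth (3295257 to 15727139 counts per library) limits what tRNAs can show, and intervals and limits from counts cover counting error only.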

Additional observations from a re-analysis of the deposited data

Results flagged for a closer look

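In 4 of 74 groups of libraries checked, 1 library lay far from the others relative to the group's range, as chance gives in about 1 of 20 groups. For mt-Co1 the low library was bleomycin 1 (1454 CPM, the next at 1811), for mt-Nd4 bleomycin 4 (477 CPM, the next at 655) and for mt-Cytb again bleomycin 4 (1215 CPM, the next at 1781). For mt-Nd1 the high library was vehicle 4 (4902 CPM, the next at 4542). Bleomycin 1 and 4 were also the libraries with the smallest shares of mitochondrial rRNA counts, 6.44% and 7%.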

How the results depend on the processing

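The counts of called genes depended on the settings as follows. With length and GC trends removed, 3 protein-coding genes were called lower after bleomycin. With the replicate block as well, 3 protein-coding genes, 3 tRNAs and 0 rRNAs were. Scaling by mitochondrial protein-coding counts left 0 protein-coding genes and 0 rRNAs called lower and 4292 genes called in all, with the rRNA median at 0.19, mt-Nd1 at 0.0459 and mt-Nd5 at 0.0782; this scaling moves the members toward 0 by construction, so it is no check of their fall. Without naive 1 and 3, 5 tRNAs and 0 rRNAs were called lower and 868 genes were called in all. Leaving out 1 library gave 3 to 7 protein-coding genes (3 without naive 2), 7 to 8 tRNAs, 1 rRNA in each fit and 1554 to 2584 genes in all (1554 without naive 4). In the ISRIB comparison 408 genes were called with DESeq2, 648 with no filter, 119 with mitochondrial scaling and 86 to 269 with 1 library left out (86 without vehicle 1); no member was called in any of these. At an unadjusted p under 0.05 there were 1934 genes. The replicate block took the call from mt-Nd5 (-0.45, adjusted p = 0.0525). Same-numbered libraries deviated together with correlations of -0.039 to 0.047 (bleomycin) and -0.11 to 0.085 (ISRIB). In the ISRIB experiment numbers 3 and 4 correlated best with their own number. Such low correlations show no clear pairing by number but cannot exclude it. Low tRNA counts and the copied stretch limit what 20 untested members in the total-RNA table and 25 in the poly(A) table can show.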
